A study of Ovis aries with 115 samples.

Results

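ACTG2, DES, ACTC1, ASB2 and POPDC2 are 5 muscle genes that were followed in the cervix of 4 ewe breeds over the phase and the type of the oestrous cycle. They were 5 of the 27054 gene identifiers counted in each library. The identifiers are ENSOARG00000012108 for ACTG2, ENSOARG00000020185 for DES, ENSOARG00000019993 for ACTC1, ENSOARG00000014168 for ASB2 and ENSOARG00000019786 for POPDC2, and the names were taken from the study's supplementary tables. The genes had been picked from those tables for low expression in Suffolk compared to Fur or Norwegian White Sheep (NWS) ewes that were follicular after synchronisation. Breed values of those ewes are therefore a description without a test. Tests of breed were run on the natural follicular and synchronised luteal ewes, which those tables did not use. Earlier results of these data were, however, known when the 5 genes were chosen. These tests are therefore not fully independent of that choice.

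Poly(A) RNA from post-mortem cervix was sequenced from 115 libraries, of which all but 1 could be placed in 12 groups of 4 breeds and 3 states. The synchronised follicular groups held 11 Suffolk, 10 Belclare, 8 Fur and 10 NWS ewes. The natural follicular groups held 8, 10, 10 and 10 ewes in the same order, and the synchronised luteal groups 10, 10, 9 and 8. All were adult ewes that had lambed before, the synchronised ones had received hormones to time oestrus, and Suffolk was the reference breed, known for low fertility after cervical insemination with frozen-thawed semen. Suffolk and Belclare ewes were kept in Ireland, and Fur and NWS ewes in Norway. A difference of an Irish from a Norwegian breed cannot be told apart from one of country.

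ACTG2 encodes the gamma actin of smooth muscle, the contractile cell of the wall of hollow organs, and DES encodes desmin, the intermediate filament that ties the contractile units of muscle cells together. ACTC1 encodes the alpha actin best known from heart muscle. ASB2 encodes the part of a ubiquitin ligase that recognises its targets, among them the actin cross-linking filamins, and POPDC2 encodes a membrane protein of muscle that binds cyclic AMP. The cervix is mostly connective tissue with bundles of smooth muscle and a secretory epithelium, and its softening and closing over the oestrous cycle follow oestrogen and progesterone.

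Total counts of the grouped libraries ranged from 12238996 to 31261671, with a median of 17835128. Expression is given as CPM, counts scaled to library sizes normalised by the trimmed mean of M-values, and 3 counts corresponded to 0.17 CPM on average. All 5 genes were among the 14811 tested, which had at least 1 CPM in at least 10 synchronised follicular ewes. ACTC1 and POPDC2 passed through the Fur and NWS ewes, as Suffolk ewes of that state held at most 0.941 and 0.744 CPM. Shares of all tested genes given beside these genes carry that limit. The 2 actins are related in sequence and only uniquely mapped read pairs had been counted. Whether this affected their separate values was not tested, as no sequence was used here. In these bulk samples, fewer muscle cells and less of an RNA per cell cannot be told apart. The labels were checked on COX-1, a mitochondrial gene that lay between 25.7 and 49.1 CPM in every Fur library. In NWS natural follicular replicates 4 and 10 it was at 38.3 and 33.3 CPM, within the Fur range, against 818 to 2580 CPM in the other 8 libraries of that group. Whether the labels of replicates 4 and 10 are wrong was not tested. Leaving both out changed none of the 30 calls on the 5 genes in the main comparisons that involved that group. The direct comparison of luteal with natural follicular NWS ewes was not among these. One Belclare synchronised follicular ewe, replicate 2, held the highest level of all 5 genes in its group, and some results that rest on it are given with and without it.

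**Figure D1:**
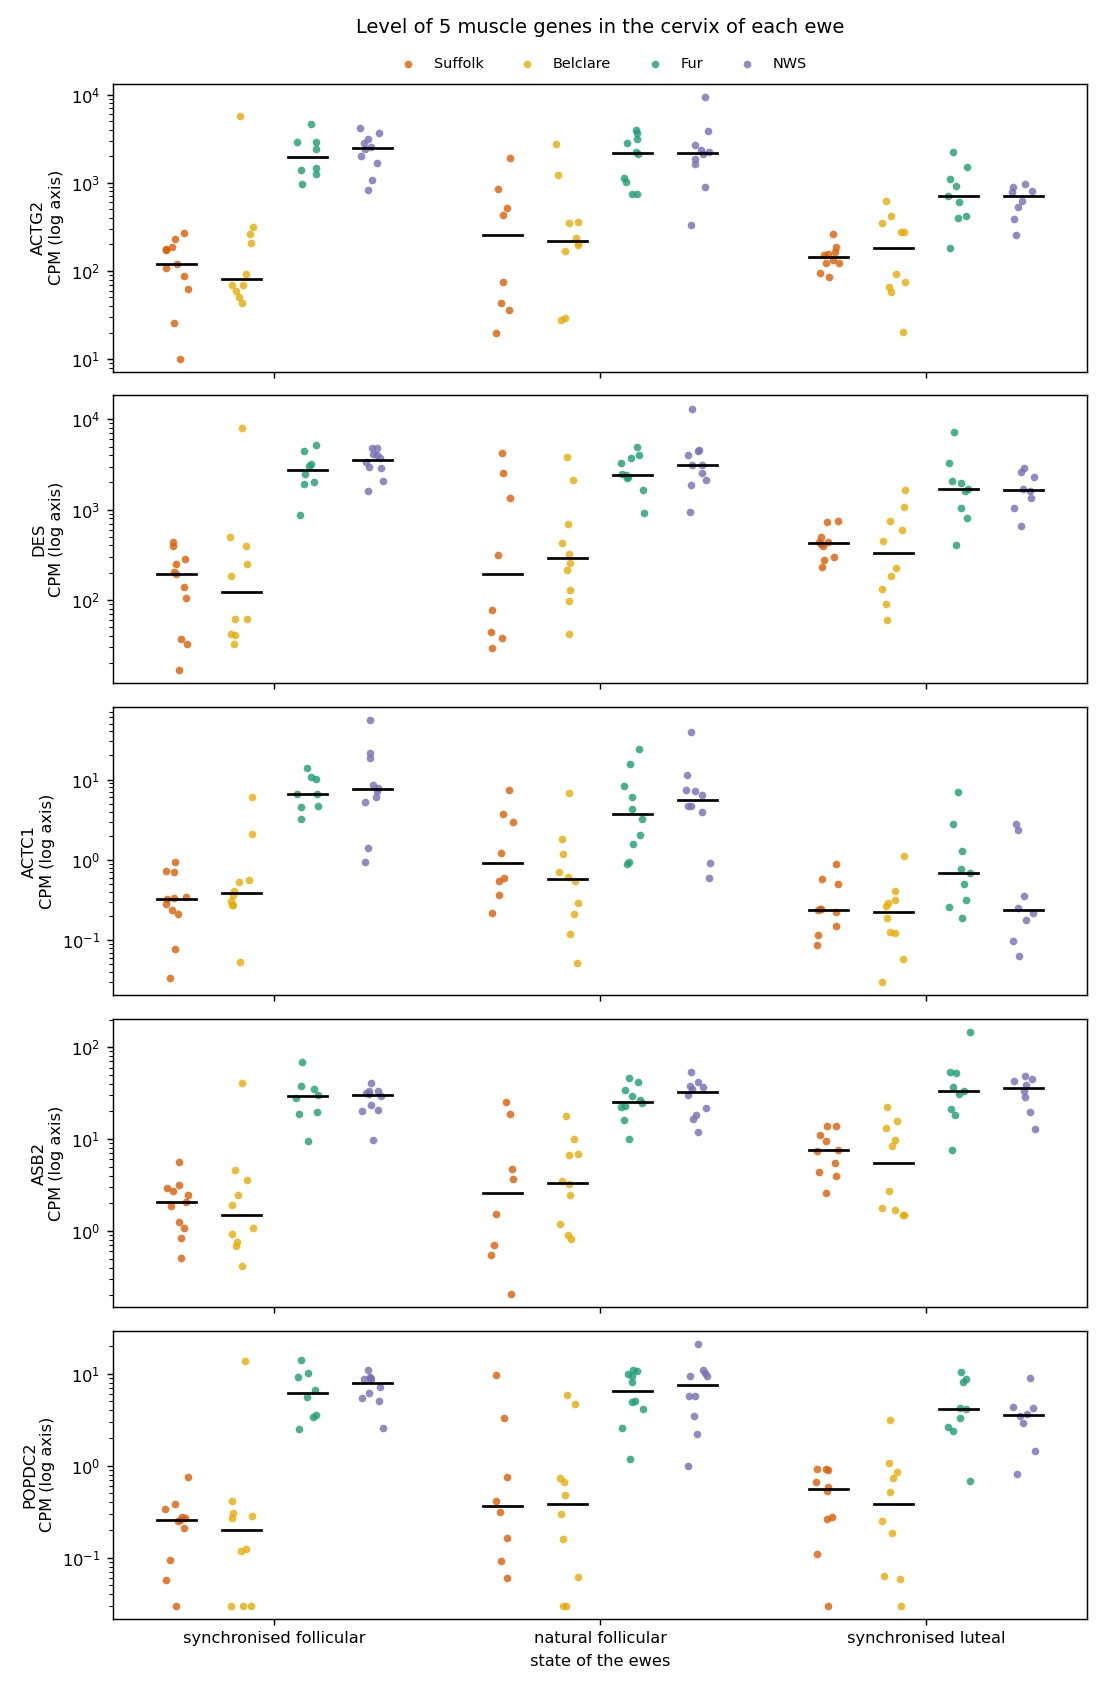
Level of each gene in CPM (vertical log axis) in every ewe, grouped by state and coloured by breed, with black bars at the group medians; values under 0.03 CPM are drawn at 0.03. Fur and NWS medians lie above Suffolk and Belclare medians for ACTG2, DES, ASB2 and POPDC2 in all 3 states, while the luteal NWS median of ACTC1, 0.236 CPM, is at the level of Suffolk.

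ACTG2 in the synchronised follicular phase ranged from 10.2 to 270 CPM in Suffolk (median 119), from 43.7 to 5752 CPM in Belclare (median 81.2), from 969 to 4604 CPM in Fur (median 1945) and from 836 to 4195 CPM in NWS (median 2500). Every Fur and every NWS ewe lay above every Suffolk ewe. Among Belclare ewes only replicate 2 reached the Norwegian range, and the other 9 lay below every Fur and NWS ewe. In the natural follicular phase the ranges were 19.9 to 1895 CPM in Suffolk (median 255), 27.7 to 2740 CPM in Belclare (median 221), 745 to 4022 CPM in Fur (median 2194) and 330 to 9459 CPM in NWS (median 2177). Here the groups overlapped, because some Irish ewes were high, while 6 of the 10 Fur ewes were still above every Suffolk ewe. In the luteal phase the ranges were 85.7 to 261 CPM in Suffolk (median 143), 20.3 to 618 CPM in Belclare (median 184), 181 to 2249 CPM in Fur (median 702) and 256 to 959 CPM in NWS (median 710). Luteal Suffolk ewes were the most even group for this gene, and 7 of 8 NWS ewes lay above all of them.

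DES, the desmin gene, followed a similar order. In synchronised follicular ewes it ranged from 16.5 to 438 CPM in Suffolk (median 192), from 32.5 to 8084 CPM in Belclare (median 121), from 862 to 5153 CPM in Fur (median 2763) and from 1617 to 4856 CPM in NWS (median 3532). No Suffolk ewe reached the lowest Fur or NWS ewe. In natural follicular ewes the medians were 196, 290, 2447 and 3095 CPM in Suffolk, Belclare, Fur and NWS, and the highest Suffolk ewe, at 4194 CPM, was above the Fur and NWS medians. In luteal ewes the medians were 424, 334, 1688 and 1661 CPM. Luteal Suffolk ewes ranged from 232 to 754 CPM and overlapped the lowest Fur ewe at 402 CPM and the lowest NWS ewe at 664 CPM.

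ACTC1, the other actin, was low in counts. Synchronised follicular medians were 0.323 CPM in Suffolk (0.0338 to 0.941), 0.389 CPM in Belclare (0.0536 to 5.996), 6.62 CPM in Fur (3.24 to 14.0) and 7.62 CPM in NWS (0.936 to 54.8). Fur ewes did not overlap with Suffolk, and 1 NWS ewe fell just under the highest Suffolk ewe. Natural follicular medians were 0.906, 0.583, 3.78 and 5.55 CPM in Suffolk, Belclare, Fur and NWS. Luteal medians were 0.239, 0.226, 0.685 and 0.236 CPM in that order. In the luteal phase 4 of 10 Suffolk, 5 of 10 Belclare and 3 of 8 NWS ewes had 3 counts or fewer, so differences among them were not detectable at this depth. The within-group SD of log2 CPM of ACTC1 had a median of 1.56 over Norwegian and 1.20 over Irish groups. For the other 4 genes the median was higher over Irish groups, for example 1.82 against 0.853 for ACTG2 and 1.79 against 0.762 for DES. This did not hold for every Irish group, as luteal Suffolk ewes had 0.471 for ACTG2 and 0.551 for DES.

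ASB2, the ubiquitin ligase gene, had synchronised follicular medians of 2.08 CPM in Suffolk (0.507 to 5.66), 1.497 CPM in Belclare (0.415 to 40.9), 29.2 CPM in Fur (9.63 to 68.8) and 30.2 CPM in NWS (9.78 to 40.6). Every Norwegian ewe was above every Suffolk ewe. The natural follicular medians were 2.59, 3.35, 25.6 and 32.4 CPM in the same order. The luteal medians were 7.60 CPM in Suffolk (2.56 to 13.9), 5.55 CPM in Belclare (1.498 to 22.5), 33.3 CPM in Fur (7.61 to 146) and 36.0 CPM in NWS (12.8 to 48.3). Unlike ACTG2, the luteal medians of ASB2 were above the synchronised follicular ones in all 4 breeds.

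POPDC2 had synchronised follicular medians of 0.258 CPM in Suffolk (0 to 0.744), 0.198 CPM in Belclare (0 to 13.7), 6.12 CPM in Fur (2.49 to 14.1) and 7.91 CPM in NWS (2.54 to 10.99). Again no Suffolk ewe overlapped a Norwegian ewe, and 3 of 11 Suffolk and 5 of 10 Belclare ewes had 3 counts or fewer. The natural follicular medians were 0.364, 0.387, 6.55 and 7.56 CPM, and the luteal medians 0.554, 0.387, 4.11 and 3.54 CPM.

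For the synchronised follicular ewes, whose values chose the genes, the log2 fold changes of Fur over Suffolk were 4.09 ± 0.48 (SE) for ACTG2, 3.93 ± 0.53 for DES, 4.30 ± 0.42 for ACTC1, 3.80 ± 0.39 for ASB2 and 4.62 ± 0.44 for POPDC2. Those of NWS over Suffolk were 4.21 ± 0.46, 4.17 ± 0.48, 5.10 ± 0.65, 3.61 ± 0.33 and 4.69 ± 0.37 in the same order. Of all genes tested, 7.3% were called higher in Fur and 9.54% in NWS, where a call needed an adjusted p under 0.05 and a fold change above 1.5. Groups without overlap were found for 5 of 5 genes in Fur, against 2.94% of all genes, and for 4 of 5 in NWS, against 2.77%. Over Belclare the log2 fold changes were 1.61 to 2.81 in Fur and 1.85 to 3.60 in NWS, with 4.77% and 7.76% of all genes called higher. They turned on Belclare replicate 2. Without it ACTG2 was higher by 4.13 in Fur and by 4.26 in NWS. Belclare over Suffolk gave log2 fold changes of 1.34 to 2.43, with 0 of 5 genes and 0.00675% of all genes called higher. The Belclare medians of ACTG2, DES, ASB2 and POPDC2 were below those of Suffolk, and replicate 2 was the highest Belclare ewe for each gene.

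The natural follicular ewes answer whether the breed difference was also present in animals that had not been synchronised. Levels in both Norwegian breeds were above those of Belclare for all 5 genes, whereas against Suffolk only ASB2 in Fur passed the test in fits of the groups compared. Fur against Belclare gave log2 fold changes of 1.96 ± 0.66 for ACTG2, 1.77 ± 0.64 for DES, 2.42 ± 0.75 for ACTC1, 2.36 ± 0.47 for ASB2 and 2.37 ± 0.73 for POPDC2, and all 5 were DEGs where 8.59% of the genes tested were called higher (edgeR's quasi-likelihood test, adjusted p from 0.000535 to 0.0327). NWS against Belclare also gave 5 of 5, with log2 fold changes of 2.31 ± 0.71, 2.29 ± 0.69, 2.82 ± 0.76, 2.51 ± 0.48 and 2.60 ± 0.78 in the same order, where 8.26% of the genes were called higher (adjusted p from 0.00186 to 0.0263). For ASB2, 8 of 10 Fur and 8 of 10 NWS ewes lay above every Belclare ewe. The NWS difference in ACTG2 depended on NWS replicate 5, the ewe with the highest level of this gene in any group. Without it the log2 fold change was 1.85, with an adjusted p of 0.0535.

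Against Suffolk fewer of the 5 genes passed the test in natural follicular ewes. ASB2 was 3.91-fold higher in Fur (log2 fold change 1.97 ± 0.68, edgeR adjusted p = 0.0478) and was the only one of the 5 called, where 4.54% of all genes were called higher. Without a filter on low counts its adjusted p was 0.0545, and DESeq2 called 3 of the 5. With all ewes in 1 fit, ASB2 and ACTG2 were called (edgeR adjusted p = 0.0103 and 0.0197). ACTG2 was 4.34-fold higher with an adjusted p of 0.0526, and DES, ACTC1 and POPDC2 were 2.54-, 3.01- and 3.62-fold higher with adjusted p from 0.093 to 0.246. In NWS the fold changes over Suffolk were 5.63 for ACTG2, 3.70 for DES, 4.02 for ACTC1, 4.37 for ASB2 and 4.32 for POPDC2, and 0 of 5 passed edgeR's test at adjusted p from 0.102 to 0.237. In that comparison 0.533% of the genes were called higher, all 5 had an unadjusted p under 0.05, as had 19.6% of all genes, and DESeq2 called 3 of 5. With all ewes in 1 fit edgeR called 4 of 5 (adjusted p from 0.00838 to 0.0417), and DES had an adjusted p of 0.0624. Only 0.23% of all genes had a larger log2 fold change than ACTG2 and 0.77% a larger one than DES. Belclare and Suffolk differed by -0.80 to 0.19 on the log2 scale, 0 of 5 passed edgeR's or DESeq2's test, 0 of 5 had an unadjusted p under 0.05, and 0% of all genes were called higher. NWS against Fur likewise gave 0 of 5 by both tools, with 0 of 5 at an unadjusted p under 0.05 and 0.0135% of genes called higher.

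The spread among Suffolk ewes was wide in this state. For ACTG2, 4 of the 8 natural follicular Suffolk ewes lay between 19.9 and 75.4 CPM and the other 4 between 434 and 1895 CPM, with none in between. The standard deviation of log2 CPM was 2.44 for ACTG2 and 2.92 for DES there, against 0.94 and 0.70 in natural follicular Fur ewes. High ewes were not the same for every gene. Suffolk replicate 6 had 848 CPM of ACTG2, 2538 CPM of DES and 25.4 CPM of ASB2 but 0.369 CPM of ACTC1, while Suffolk replicate 2 had the highest ACTC1 of the group, 7.50 CPM, beside 313 CPM of DES.

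In the luteal phase of the synchronised cycle, both Norwegian breeds again had higher expression of these genes than Suffolk, apart from ACTC1 in NWS. ACTG2 was 5.98-fold higher in Fur (log2 fold change 2.58 ± 0.36, edgeR adjusted p = 0.000179) and 4.43-fold higher in NWS (2.15 ± 0.24, edgeR adjusted p = 7.82e-05). DES was 4.92-fold higher in Fur and 3.98-fold higher in NWS, ASB2 was 5.49- and 4.24-fold higher, and POPDC2 was 9.35- and 7.13-fold higher. ACTC1 was called in Fur only, at 4.60-fold (edgeR adjusted p = 0.0145). In NWS its estimate of 2.44-fold did not pass the test (edgeR adjusted p = 0.244). Its luteal medians were 0.236 CPM in NWS and 0.239 CPM in Suffolk, with 3 of 8 and 4 of 10 ewes at 3 counts or fewer. Only 2 of the 8 NWS ewes lay above every Suffolk ewe. Thus 5 of 5 genes were called higher in Fur and 4 of 5 in NWS, where 6.44% and 2.9% of all genes were. The ACTC1 call in Fur was lost without Fur replicate 8, the highest luteal Fur ewe for each of the 5 genes, at a log2 fold change of 1.39 and an adjusted p of 0.051. With all ewes in 1 fit the DES call in NWS was lost (adjusted p = 0.0585).

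The same held against Belclare. Of the 5 genes, 5 were called higher in luteal Fur ewes (log2 fold changes from 1.98 to 2.84, 8.81% of all genes called higher) and 4 in luteal NWS ewes (7.05% of all genes), where ACTC1 had an adjusted p of 0.158 by edgeR. In the fit of all ewes, ACTG2 and DES in NWS had adjusted p of 0.0801 and 0.056. Belclare against Suffolk gave log2 fold changes of -0.17 to 0.60, with 0 of 5 called by edgeR or DESeq2 and 0 of 5 at an unadjusted p under 0.05, where 0.736% of genes were called higher. NWS against Fur gave -0.92 to -0.31, again with 0 of 5 by both tools and at an unadjusted p under 0.05, where 0.027% of genes were called lower. Comparisons of Fur and NWS with one reference breed share the ewes of that breed, so they are not independent of each other.

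**Figure D2:**
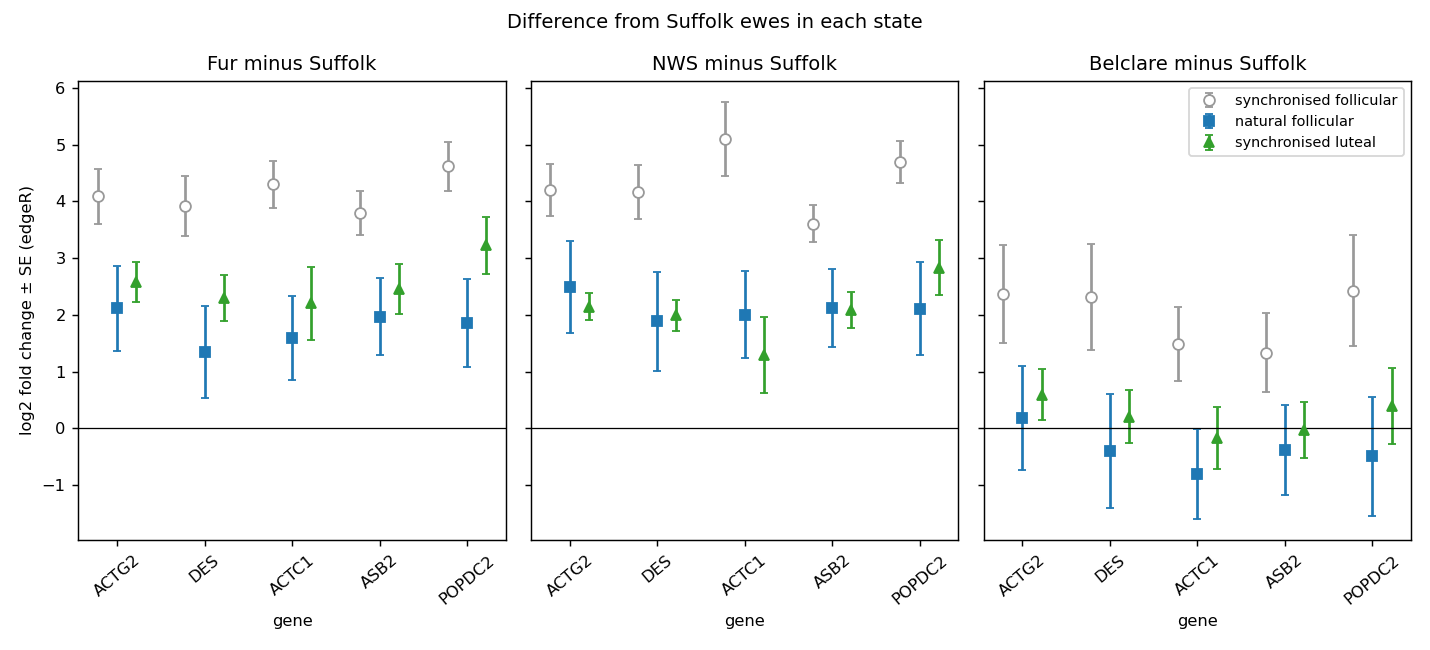
Log2 fold change of each breed over Suffolk (vertical axis, bars are ± SE) for the 5 genes in the 3 states. Open grey circles are the synchronised follicular ewes that chose the genes; the natural follicular and luteal estimates for Fur and NWS lie between 1.29 and 3.22, and those for Belclare between -0.80 and 0.60. The synchronised follicular estimates for Belclare, 1.34 to 2.43, come from a group in which replicate 2 was highest for all 5 genes.

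Markers of other cell types moved with the breeds. The summed level of 17 epithelial genes had medians of 6410 and 7030 CPM in Suffolk and Belclare synchronised follicular ewes and 3790 and 3260 CPM in Fur and NWS. In natural follicular ewes the medians were 5640 and 7240 CPM against 3690 and 3610 CPM, and in luteal ewes 4110 and 5470 CPM against 2840 and 2870 CPM. The ranges overlapped, for example 3030 to 5970 CPM in luteal Suffolk and 1450 to 4460 CPM in luteal Fur ewes. Belclare replicate 2 of the synchronised follicular group had the lowest epithelial sum of its group, 2380 CPM. Summed levels of 13 leukocyte genes were 255 and 193 CPM (medians) in synchronised follicular Suffolk and Belclare and 117 and 113 CPM in Fur and NWS. The part of these cell types in the muscle gene differences was not tested. Nearly all of the marker names come from a table of genes with higher expression in Suffolk than in Fur, so the direction of these sums is not independent evidence. The sum of 7 genes of striated muscle was lower in the Norwegian than in the Irish synchronised follicular ewes (medians 76.1 and 62.0 against 140 and 143 CPM).

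The phase of the cycle was compared within each breed, between luteal and follicular ewes of the synchronised cycle. The follicular ewes of these comparisons are those that chose the genes, for low levels in Suffolk and high levels in Fur or NWS. That choice favours a luteal fall in the Norwegian breeds and a luteal rise in Suffolk. The luteal ewes were therefore also set against the natural follicular ewes of their breed, an alternative added after the data were seen in which phase and type of cycle change together. There ACTC1 was lower in luteal ewes of all 4 breeds, with log2 fold changes of -2.71 ± 0.63 in Suffolk, -2.08 ± 0.74 in Belclare, -2.13 ± 0.73 in Fur and -3.41 ± 0.83 in NWS (edgeR adjusted p from 0.00766 to 0.0317). In Belclare its median was 9.5 counts in natural and 4 in luteal ewes, with 2 and 5 of 10 ewes at 3 counts or fewer. Belclare natural replicate 2 was highest, at 6.82 CPM against a group median of 0.583 CPM, and a fit without it was not run. ACTG2 was lower in Fur (-1.28 ± 0.42, edgeR adjusted p = 0.0216) and NWS (-2.05 ± 0.46, edgeR adjusted p = 0.00874), and gave -1.71 ± 0.66 in Suffolk and -1.30 ± 0.74 in Belclare with adjusted p of 0.0718 and 0.167. In NWS, natural replicate 5 was the highest ewe for both actins, at 9459 CPM of ACTG2 and 39.8 CPM of ACTC1. The group medians were 2177 and 5.55 CPM. Fits of luteal against natural NWS ewes without replicate 5, or without replicates 4 and 10, were not run. DES, ASB2 and POPDC2 were called in no breed, with ASB2 between 0.17 and 0.67. The share of all genes called lower was 6.91% in Suffolk, 10.8% in Belclare, 10.5% in Fur and 5.62% in NWS.

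Against the synchronised follicular ewes, both actins were also called lower in the Norwegian breeds. In NWS the log2 fold change was -1.89 ± 0.31 for ACTG2 (edgeR adjusted p = 0.000269) and -4.03 ± 0.86 for ACTC1 (edgeR adjusted p = 0.00158). It was -0.94 ± 0.26 for DES and -0.96 ± 0.35 for POPDC2, so 4 of 5 genes were called lower where 10.3% of all genes were. In Fur it was -1.33 ± 0.42 for ACTG2 (edgeR adjusted p = 0.0163) and -2.31 ± 0.60 for ACTC1 (edgeR adjusted p = 0.00498), 2 of 5 where 11.9% of all genes were called lower. DES and POPDC2 in Fur gave -0.38 ± 0.45 and -0.48 ± 0.44. In luteal ewes, 6 of 9 Fur and 6 of 8 NWS had less ACTG2 than every follicular ewe of their breed, and 8 of 9 Fur and 6 of 8 NWS had less ACTC1. With all ewes in 1 fit, ACTG2 in Fur (adjusted p = 0.115), DES and POPDC2 in NWS (0.294 and 0.285) and DES in Suffolk (0.129) were no longer called.

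In Suffolk the synchronised comparison ran upwards for 2 genes. ASB2 was 3.58-fold higher in luteal ewes (log2 fold change 1.84 ± 0.36, edgeR adjusted p = 0.000605) and DES 2.36-fold (1.24 ± 0.43, edgeR adjusted p = 0.0307), 2 of 5 where 8.39% of all genes were called higher. Neither was seen against natural follicular Suffolk ewes, where ASB2 gave 0.20 ± 0.68 and DES -1.27 ± 0.78. In the synchronised comparison ACTG2, ACTC1 and POPDC2 gave 0.18 ± 0.38, -0.23 ± 0.47 and 0.92 ± 0.49 with adjusted p from 0.153 to 0.744. In 6 of 10 luteal Suffolk ewes ASB2 was above every follicular one. In Belclare only ACTC1 was called lower (-1.90 ± 0.73, edgeR adjusted p = 0.0405), 1 of 5 where 12.4% of all genes were, and 9.97% were called higher. This call rested on replicate 2 of the follicular group. Without that ewe ACTC1 was at -0.94 with an adjusted p of 0.208, and ASB2 was instead called higher, at 2.07 with an adjusted p of 0.0098. DES and POPDC2, at -0.87 ± 0.96 and -1.13 ± 1.06 by edgeR, were called higher by DESeq2, at 1.498 and 1.91. Replicate 2 held 8084 and 13.7 CPM of them, against follicular medians of 121 and 0.198 CPM and luteal medians of 334 and 0.387 CPM. ACTG2 gave -1.60 ± 0.92 by edgeR, although its median was 81.2 CPM in follicular and 184 CPM in luteal ewes, with replicate 2 at 5752 CPM.

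**Figure D3:**
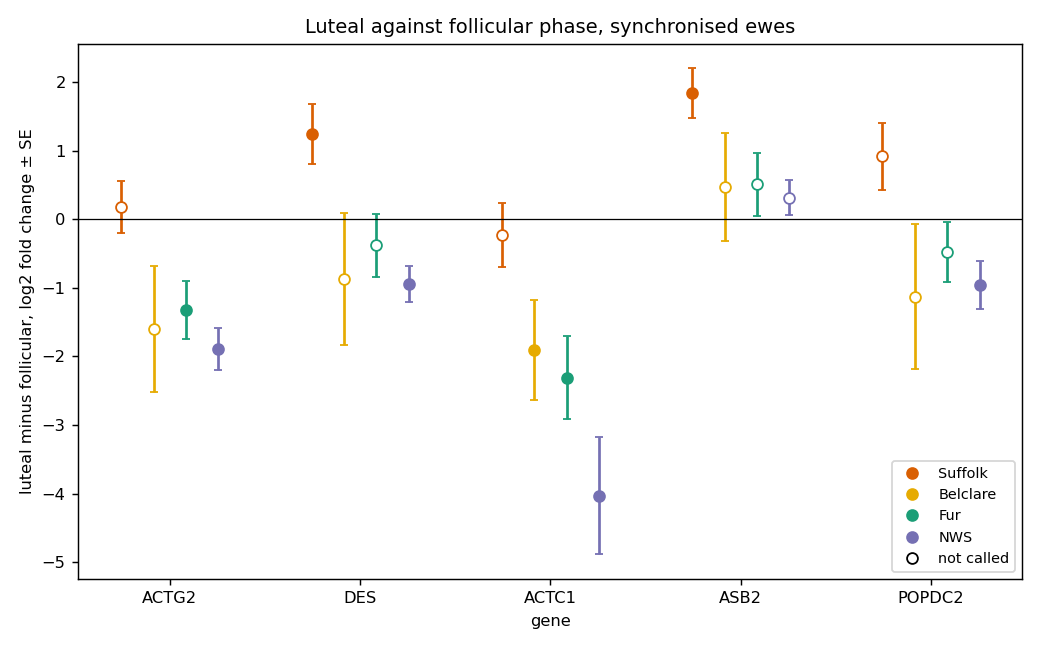
Luteal minus follicular log2 fold change of the 5 genes in each breed of the synchronised cycle (vertical axis, bars are ± SE); filled points were called. ACTC1 lies lowest in NWS at -4.03 and ASB2 highest in Suffolk at 1.84; the follicular ewes are those that chose the genes, which favours values below 0 in Fur and NWS and above 0 in Suffolk.

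The ratio of 2 genes within a library does not depend on its size. Ratios between members were chosen after their phase changes had been seen and were compared between luteal and synchronised follicular ewes of each breed, 20 tests in all. Because of that choice, the p-values of these ratios are no independent support for a change over the phase. ACTG2 fell relative to DES in every breed. The log2 ratio of ACTG2 to DES had a mean of -0.40 ± 0.79 (SD) in follicular and -1.57 ± 0.44 in luteal Suffolk ewes, -0.14 ± 0.68 and -1.14 ± 0.40 in Belclare, -0.37 ± 0.38 and -1.22 ± 0.24 in Fur, and -0.57 ± 0.47 and -1.41 ± 0.18 in NWS. The luteal ratio was thus 2.25-fold lower in Suffolk, 2.00-fold in Belclare, 1.81-fold in Fur and 1.79-fold in NWS (two-sided permutation tests of the labels, exact for Fur and NWS, adjusted p = 0.000867, 0.0026, 0.000165 and 0.00157). In Fur, 9 of 9 luteal ewes had a lower ratio than every follicular ewe.

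ASB2 rose relative to ACTG2 in every breed, by 2.45-fold in Suffolk, 2.48-fold in Belclare, 3.44-fold in Fur and 4.40-fold in NWS (two-sided permutation tests, exact for Fur and NWS, adjusted p = 0.00283, 0.00107, 0.000165 and 0.000165). In Fur 9 of 9 and in NWS 8 of 8 luteal ewes had a higher ratio than every follicular ewe. Relative to DES, ASB2 rose in Fur (log2 difference 0.93) and NWS (1.30), with an adjusted p of 0.000165 for both in exact permutation tests, while Suffolk and Belclare gave 0.12 and 0.31 with adjusted p of 0.758 and 0.398 in permutation tests. ACTC1 relative to DES fell in every breed, by 1.86 to 2.87 on the log2 scale (permutation tests, adjusted p from 0.00106 to 0.0319). Median luteal ACTC1 counts were 5 in Suffolk, 4 in Belclare and 4.5 in NWS. The ratios there depend on the prior count of 2 that was added to each gene. In Suffolk the follicular median was also 5 counts, and ACTC1 itself changed by -0.23 in log2 units while DES rose by 1.24. POPDC2 relative to DES passed the test in Suffolk only (-1.08, permutation test, adjusted p = 0.0319), and gave -0.51, 0.04 and -0.10 in Belclare, Fur and NWS. Its Suffolk medians were 4 counts in follicular and 10.5 in luteal ewes.

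Since natural follicular ewes were not used in the tables that gave the genes, the ratios were also taken between luteal and natural follicular ewes. The luteal ewes are the same in both, and the ratios were chosen with their values seen, so this is not an independent test of the ratios. ACTG2 over DES was lower in luteal ewes of every breed by 0.60 to 1.03 on the log2 scale (permutation tests, adjusted p from 0.0056 to 0.0468). ASB2 over ACTG2 was higher by 1.22 to 1.89 (permutation tests, adjusted p from 0.000361 to 0.013). ACTC1 over DES, at the same low luteal counts, was lower in Suffolk, Fur and NWS. It gave -1.01 in Belclare with an adjusted p of 0.192 in a permutation test. POPDC2 over DES in Suffolk gave -1.18 with an adjusted p of 0.0738 in an exact permutation test.

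**Figure D4:**
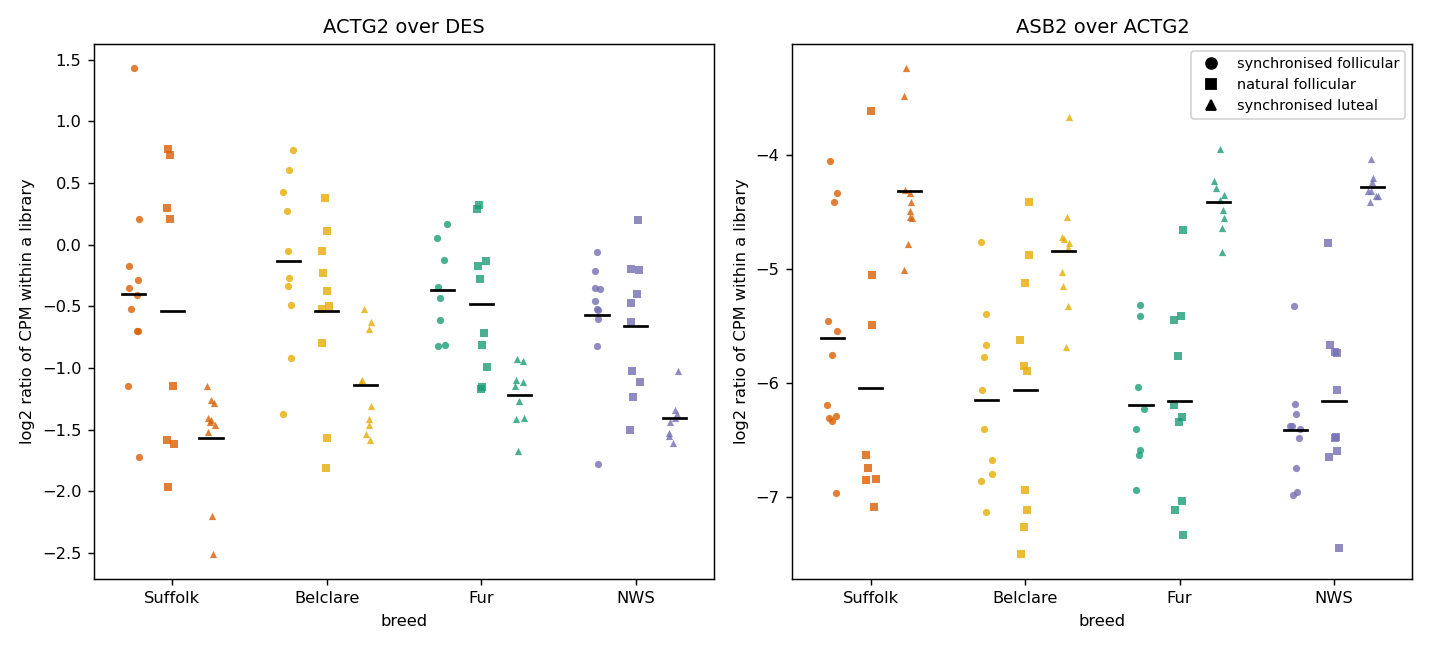
Log2 ratio of ACTG2 to DES and of ASB2 to ACTG2 within each library (vertical axes), by breed and state, with black bars at the group means. In each breed the luteal ewes have the lowest mean of the first ratio and the highest mean of the second.

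The type of cycle was compared within each breed between natural and synchronised follicular ewes. In Fur and NWS the 5 genes differed by -0.64 to 0.19 on the log2 scale and in Belclare by -0.31 to 0.17. Without synchronised replicate 2 the Belclare differences were 2.10 ± 0.73 for ACTG2, 2.24 ± 0.81 for DES, 1.16 ± 0.73 for ACTC1, 1.52 ± 0.58 for ASB2 and 2.85 ± 0.97 for POPDC2, with an edgeR adjusted p of 1 for each and an unadjusted p under 0.05 for all but ACTC1. In Suffolk the log2 differences, natural minus synchronised, were 1.89 ± 0.73 for ACTG2, 2.51 ± 0.86 for DES, 2.49 ± 0.62 for ACTC1, 1.64 ± 0.69 for ASB2 and 2.71 ± 0.80 for POPDC2. None of the 20 passed edgeR's or DESeq2's test. In Suffolk all 5 had an unadjusted p under 0.05, with adjusted p from 0.495 to 0.556, and 0% of the 14811 genes were called higher. An unadjusted p under 0.05 was found for 8.55% of all genes there. At an unadjusted p under 0.05 the other breeds gave 0 of 5 each, where 0% of genes were called higher in Belclare, 0.0135% in NWS and 2.71% in Fur (2.21% lower). Of the 8 natural Suffolk ewes, 4 had more ACTG2 and 3 more DES than every synchronised Suffolk ewe, and the others lay within the synchronised range. The synchronised Suffolk ewes are those that chose the genes for low levels, which favours a rise in natural ewes.

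Whether the changes differed between breeds was tested as an interaction with Suffolk as reference. The luteal change in NWS minus that in Suffolk was -2.08 ± 0.52 for ACTG2, -2.20 ± 0.55 for DES, -3.81 ± 0.97 for ACTC1, -1.54 ± 0.45 for ASB2 and -1.87 ± 0.61 for POPDC2, in log2 units. None passed edgeR's test (adjusted p from 0.0704 to 0.171), while all 5, and 13.4% of all genes, had an unadjusted p under 0.05 and 0.162% of genes were called lower. DESeq2 called ACTG2, DES and ACTC1. In Fur the differences were -2.09 to -1.34 with adjusted p from 0.205 to 0.322 and 0 of 5 called by either tool, where 0.101% of genes were called lower. The natural against synchronised change in Fur minus that in Suffolk was -2.71 to -1.79, with edgeR adjusted p from 0.0508 for ACTC1 to 0.162 for ACTG2. Here 2.94% of genes were called lower and 1.38% higher by edgeR, and DESeq2 called DES, ACTC1 and POPDC2. In NWS it was -3.12 to -1.48 with adjusted p from 0.134 to 0.338 and 0 of 5 called by either tool, where 0.00675% of genes were called lower. All 5 genes had an unadjusted p under 0.05 in both breeds, as had 23.6% of all genes in Fur and 14.7% in NWS, and in the phase interaction of Fur, as had 14.7%. Belclare gave 0 of 5 in either interaction by both tools, with 0 of 5 (phase) and 1 of 5 (cycle) at an unadjusted p under 0.05 and 0% of genes called. These interactions involve the synchronised follicular ewes that chose the genes, and the choice favours negative values in Fur and NWS, so these p-values and calls are no independent support for a difference between breeds. Interactions without those ewes, of luteal against natural ewes, gave 0 of 15 by edgeR, by DESeq2 and at an unadjusted p under 0.05, with log2 differences between -0.70 and 1.34. In that comparison 1.03% of genes were called lower and 0.196% higher in Fur.

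Ewes of the same group varied together in 4 of the 5 genes. Over all grouped ewes, deviations of log2 CPM from the group mean were correlated at Pearson r = 0.919 and Spearman rho = 0.899 between ACTG2 and DES, and at r = 0.916 and rho = 0.903 between DES and ASB2 (permutation within groups, p = 1e-05 for each, the smallest that 100000 shuffles can give, adjusted 1.11e-05 for r and 1.25e-05 for rho over 10 pairs). POPDC2 had r from 0.791 to 0.824 with ACTG2, DES and ASB2, and r among these 4 genes was above 0 in all 12 groups. ACTC1 was looser, with r of 0.566 with ACTG2, 0.513 with POPDC2, 0.491 with DES and 0.402 with ASB2 (rho = 0.513, 0.472, 0.466 and 0.360, all adjusted permutation p at or under 0.00024). Without the 2 ewes farthest from the median of the first gene, r was 0.900 for ACTG2 and DES and 0.317 for ACTC1 and ASB2, the lowest of the 10 pairs. Within single groups r of ACTG2 and ACTC1 ranged from -0.339 to 0.966.

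**Figure D5:**
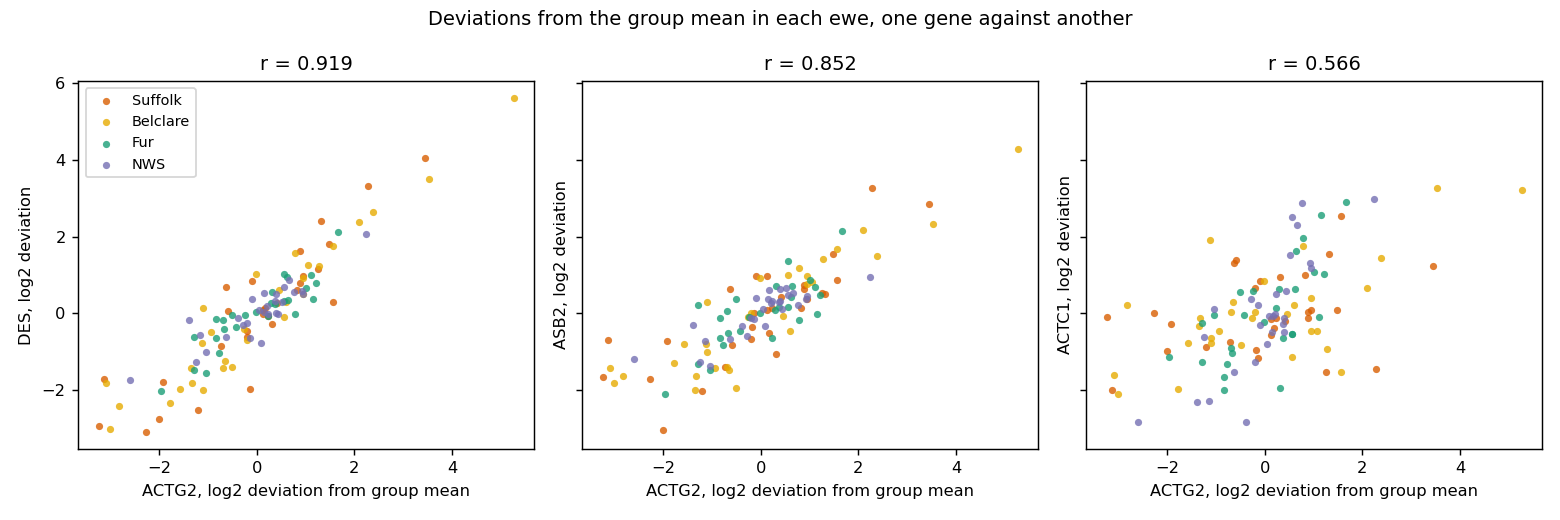
Deviation of log2 CPM from the group mean in each ewe, with ACTG2 on the horizontal and DES, ASB2 or ACTC1 on the vertical axis, coloured by breed. Points lie close to a line for DES (r = 0.919) and ASB2 (r = 0.852) and are scattered for ACTC1 (r = 0.566).

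Ewes with more ACTG2 and DES than their group had less epithelial RNA. The mean log2 level of ACTG2 and DES was correlated within groups with the log2 sum of the 17 epithelial genes at Pearson r = -0.578 and Spearman rho = -0.531, and with the 13 leukocyte genes at r = -0.497 and rho = -0.531. Without the 2 farthest ewes r was -0.497 and -0.492. The 7 striated muscle genes gave r = -0.353 and rho = -0.313. Stromal, endothelial and contraction lists gave r of 0.0867, -0.182 and -0.25. These are descriptions over all grouped ewes, with no test, since the score is made of chosen genes. CPM values of a library share 1 total, so a high level of some genes lowers the others, and the size of that share was not tested.

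Among the genes that carry a name, PNCK, a calmodulin-dependent kinase, and PCP4, a small regulator of calmodulin, were closest in pattern to each of the 5 genes. PNCK had r of 0.817 with ACTG2, 0.801 with DES, 0.563 with ACTC1, 0.839 with ASB2 and 0.845 with POPDC2 over the grouped ewes. PCP4 had r of 0.802, 0.784, 0.453, 0.770 and 0.747 in the same order. The third named gene was PHF21B for ACTG2 (r = 0.492), CHST7 for DES (r = 0.497) and PI16 for ACTC1, ASB2 and POPDC2 (r = 0.447, 0.590 and 0.529). Names cover 1352 identifiers, and 35 unnamed genes were closer to ACTG2, 60 to DES, 38 to ACTC1, 38 to ASB2 and 2 to POPDC2 than PNCK was. The closest unnamed genes were ENSOARG00000014814 for ACTG2 (r = 0.948) and ENSOARG00000011889 for DES (r = 0.973). The median r of all genes with any of the 5 lay between -0.0146 and -0.00276.

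Other genes of contraction and the actin cytoskeleton were taken as a list. It has 17 names, which belong to 18 identifiers in the files, nearly all named for higher expression in Suffolk than in Fur, so its direction between breeds is set by that choice. In luteal ewes, 1 of 18 was higher and 7 lower in Fur than in Suffolk (median log2 fold change -0.598) and 1 higher and 2 lower in NWS (median -0.515), where 6.44% and 2.9% of all genes were called higher, 7.4% and 1.45% were called lower, and the medians over all genes were -0.022 and 0.00306. The gene that was higher in both was PCP4, at 4.54 ± 0.60 in Fur (edgeR adjusted p = 0.00013) and 4.08 ± 0.60 in NWS (edgeR adjusted p = 0.000616). OXTR, the oxytocin receptor, had a log2 fold change of -5.66 ± 1.41 in luteal Fur over Suffolk ewes (edgeR adjusted p = 0.00635). Its luteal Suffolk values ran from 0.115 to 225 CPM around a median of 0.98 CPM, against a Fur median of 0.51 CPM. MRTFB, a coactivator of muscle gene transcription, was lower in Fur (-0.91 ± 0.14, edgeR adjusted p = 0.000311) and NWS (-0.61 ± 0.15, edgeR adjusted p = 0.0196), and PPP1R12B, a myosin phosphatase subunit, in Fur (-0.59 ± 0.17, edgeR adjusted p = 0.014).

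Over the phase, this list had 2 genes higher and 4 lower in luteal Belclare, 3 and 3 in Fur, 1 and 4 in NWS, and 0 and 6 in Suffolk. The shares of all genes called higher and lower were 9.97% and 12.4% in Belclare, 11.9% and 11.9% in Fur, 11.7% and 10.3% in NWS, and 8.39% and 8.74% in Suffolk. OXTR was lower in luteal ewes, at -4.40 ± 0.70 in Belclare, -3.90 ± 0.67 in Fur and -3.64 ± 1.01 in NWS (edgeR adjusted p from 6.8e-05 to 0.00829), and gave -0.33 ± 1.04 in Suffolk. The Suffolk median was also lower in luteal than follicular ewes, 0.98 against 20.1 CPM, and 1 luteal ewe was at 225 CPM. TPM3, a tropomyosin, was lower, at -1.02 ± 0.17 in Belclare, -0.61 ± 0.16 in Fur and -1.04 ± 0.18 in Suffolk (edgeR adjusted p from 0.000114 to 0.00416). It gave -0.49 ± 0.18 in NWS, under the fold limit (edgeR adjusted p = 0.0404). PCP4, close to ACTG2 across ewes, was lower in luteal NWS ewes (-1.08 ± 0.42, edgeR adjusted p = 0.0482) and gave -0.70 ± 0.42 in Fur and 1.20 ± 0.70 in Suffolk.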

How the data were processed

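The authors trimmed the read pairs of stranded mRNA libraries, aligned them to Oar_v3.1 with STAR 2.6.1b allowing at most 2 mismatches, kept unique pairs, and deposited raw counts per Ensembl gene from featureCounts (Subread 1.6.3) without normalization. Whether counting used strand is not given in the sources used here. No pair of the 490 pairs of libraries within groups agreed within counting noise (lowest chi-square per degree of freedom 15.4). Replicates are ewes as the labels give them. One library, whose title and other labels name different cycles and phases, was left out of all comparisons. The 14811 genes that reached 1 CPM in at least 10 synchronised follicular ewes were tested with edgeR 4.0.16 in R 4.3.3 (TMM, quasi-likelihood F test, Benjamini-Hochberg adjustment over all genes), in fits of only the groups compared. A call needed an adjusted p under 0.05 and a fold change above 1.5. The SE is the log2 fold change divided by the square root of F. Correlations and ratios used log2 CPM with a prior count of 2. Permutation tests of ratios enumerated all divisions where a group had fewer than 10 ewes and otherwise drew 100000. The fits were also run on simulated counts with 200 changed genes, the same variability for every gene and no outlying ewes. That run does not cover groups as widely spread as some of those here. The alternatives were DESeq2 1.42.0, other filters and size factors, all ewes in 1 fit, a replicate block and ewes left out. The genes named are the 5 members, 5 of the contraction list, and the named genes of most similar pattern. The members and lists were chosen with earlier results of these data known. No genome sequence was used here, so no coordinates or sequences are given.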

Additional observations from a re-analysis of the deposited data

Results flagged for a closer look

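Of 55 combinations of a gene and a group of 4 to 10 ewes, 6 held an ewe whose log2 level was separated from the rest by more than Dixon's 95% limit, where chance gives about 1 in 20. Belclare synchronised follicular replicate 2 was such an ewe for ACTG2 (5752 CPM), DES (8084 CPM), ASB2 (40.9 CPM) and POPDC2 (13.7 CPM). It lay above every other ewe of its group, and its epithelial sum was the lowest there. NWS synchronised follicular replicate 4 lay below its group for ASB2 (9.78 CPM) and POPDC2 (2.54 CPM).

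The library without a group, whose labels disagree, had 238 CPM of ACTG2, 627 CPM of DES, 0.519 CPM of ACTC1, 14.1 CPM of ASB2 and 0.864 CPM of POPDC2. It was used in no comparison.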

How the results depend on the processing

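Of 175 combinations of a gene and a comparison, DESeq2's size factors, the filter over all ewes and no fold threshold left all 175 calls as they were, and no filter left 172. DESeq2's Wald test left 159, all ewes in 1 fit 159, and the replicate block 164. In the luteal against follicular comparison of Belclare, DESeq2 turned DES to 1.498 and POPDC2 to 1.91 in log2 units and called both higher. Of the calls on natural against synchronised ewes, 0 of 20 became 1 of 20 with the replicate block (ACTC1 in Fur, log2 fold change -1.33). For the interaction of breed and phase, 0 of 15 became 3 with DESeq2 and 1 without NWS synchronised follicular replicate 4. For that of breed and cycle, 0 of 15 became 3 with DESeq2 and 2 without NWS natural follicular replicate 5. These ewes, Fur luteal replicate 8 and the comparisons with natural ewes were added after the data were seen. With natural follicular ewes in place of synchronised ones, calls over the phase went from 9 to 6 of 20, with ACTC1 in Suffolk gained, DES and POPDC2 in NWS and ASB2 in Suffolk lost, and DES in Suffolk turned to -1.27. In the breed families the number of calls stayed within 1.5 times: 15 of 30 in synchronised follicular ewes, a description, 11 of 30 in natural follicular and 18 of 30 in luteal ewes. Of the 9 of 20 calls over the phase, those of ACTG2 in Fur, DES and POPDC2 in NWS and DES in Suffolk were lost with all ewes in 1 fit. The replicate numbers are shared by different animals. Deviations of same-numbered ewes of other groups had a median correlation of -0.0139 over 590 pairs, against 0.000723 for other pairs, with 27.1% and 29.6% of pairs above 0.1. These values gave no sign that the numbers pair the ewes, and a batch shared by the numbers was not tested. With the replicate block 5 calls were lost and 6 gained, among those lost ACTC1 in luteal Fur against Suffolk (log2 fold change 1.48, edgeR adjusted p = 0.107) and DES and POPDC2 over the phase in NWS (edgeR adjusted p = 0.0538 and 0.0821).

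Counts over all genes depended on the settings most where the main count was low. NWS against Suffolk in natural ewes had 147 calls, 830 with DESeq2, 1328 with all ewes in 1 fit, and 0 with the replicate block or without NWS replicates 4 and 10. Belclare against Suffolk in luteal ewes had 360, 938, 990 and, with the block, 18. The block also took NWS against Suffolk in luteal ewes from 645 to 211, NWS against Belclare there from 1724 to 1001, Fur against Suffolk in natural ewes from 1425 to 942, and the interaction of Fur and cycle from 640 to 196. All ewes in 1 fit took natural against synchronised Fur from 729 to 378, and leaving out Belclare replicate 2 took Fur against Belclare in synchronised follicular ewes from 1372 to 2376. Low counts moved with DESeq2 and with all ewes in 1 fit, in that order: natural against synchronised NWS from 2 to 95 and 79, natural against synchronised Suffolk from 0 to 7 and 4, Belclare against Suffolk in natural ewes from 0 to 18 and 40, NWS against Fur from 5 to 41 and 99 in natural and from 6 to 49 and 20 in luteal ewes, the phase interaction from 17 to 157 and 33 in Fur and from 28 to 131 and 0 in NWS, and the cycle interaction in NWS from 1 to 107 and 259. Without NWS natural replicate 5 this last count was 508 and natural against synchronised NWS 195. Luteal against natural in Fur minus Suffolk had 182, 388 with DESeq2 and 56 with the block. No fold threshold raised most counts over 1.5 times, such as 1965 to 4678 in synchronised follicular Fur against Suffolk, 1425 to 2995 in natural and 2050 to 4460 in luteal ewes. The precision of POPDC2 and ACTC1 in Irish ewes was limited by counts at or near the floor.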
